A study of Mus musculus with 18 samples.

Results

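The Myc family genes were 8 genes taken by symbol from the deposited count table of 45706 genes: Myc, Mycn, Mycl, Max, Mga, Mxd3, Mnt and Mlx. All 8 were found, each on 1 row, and all 8 passed the filter on low counts, among 16619 genes tested. They were measured in 18 RNA-seq libraries of mouse induced pluripotent stem cells (iPSCs), in 6 groups of 3. The groups were wt cells and the Hmga2 knock-out clones KO#1 and KO#2, each at 0 h and at 24 h of induction into epiblast-like cells (EpiLCs). At 0 h the cells stood on inactivated fibroblast feeders with leukaemia inhibitory factor and the MEK and GSK3 inhibitors PD0325901 and CHIR-99021 (2i). At 24 h they stood on Geltrex with Activin A and bFGF, without feeders or inhibitors, so time, medium and feeders cannot be told apart. KO#1 and KO#2 each stand for 1 clone, while the wt labels name no clone. The paper used more than 1 wt clone, and which of them gave these libraries is not stated. How the iPSCs were reprogrammed is not given in the sources used here. Counts on Myc would not separate a transgene from the gene itself.

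Myc, Mycn and Mycl are the paralogous activators of the family. Each binds DNA, chiefly at the E-box CACGTG, as a heterodimer with Max. Max also pairs with Mnt, Mxd3 and Mga, which act as repressors at the same sites, and Mga joins Max to a variant polycomb complex (PRC1.6) that silences germline genes. Mlx is a Max-like partner used by Mnt, some Mxd proteins and the glucose-sensing Mondo proteins. In mouse embryonic stem cells Myc paralogs are known for driving ribosome production and growth, and cells without them enter a dormant-like state.

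The genes lie apart on GRCm38, as annotated by GENCODE M21. Myc is at chr15:61985391-61990374 (+), Mycn at chr12:12936093-12941914 (-) and Mycl at chr4:122995652-123002485 (+). Max is at chr12:76937269-76962201 (-), Mga at chr2:119897228-119969581 (+) and Mxd3 at chr13:55325168-55329823 (-). Mnt is at chr11:74830920-74845725 (+) and Mlx at chr11:101087277-101092207 (+). Their merged exons run from 1999 bases for Mlx to 15340 bases for Mga. For Mlx, 385 exonic bases (19.3%) also belong to the antisense gene Psmc3ip, and for Mxd3, 105 bases (4.43%) belong to the antisense gene Prelid1. The kit kept strand, but the strand setting of the counting is not given in the sources used here, so the values of both genes are uncertain to that extent.

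RefSeq promoter sequences (GRCm38.p6, 250 bases before to 50 after the annotated start) were matched for 7 of the 8 genes. The motifs searched, on both strands, were the E-box CACGTG and the E2F site TTTGGCGC, which do not overlap each other. CACGTG was present in the promoters of Mnt, Max and Mlx, against 7.15% of 32851 promoters of the same length. TTTGGCGC was present at 2 places in the Mycn promoter, against 0.514% of all promoters. The windows of Mga, Mxd3 and Mycl held neither motif. These 4 promoters are printed because they carry the motif of the family's own dimers, or in Mycn the motif of the E2F factors, with the motif in capitals.
Mnt promoter: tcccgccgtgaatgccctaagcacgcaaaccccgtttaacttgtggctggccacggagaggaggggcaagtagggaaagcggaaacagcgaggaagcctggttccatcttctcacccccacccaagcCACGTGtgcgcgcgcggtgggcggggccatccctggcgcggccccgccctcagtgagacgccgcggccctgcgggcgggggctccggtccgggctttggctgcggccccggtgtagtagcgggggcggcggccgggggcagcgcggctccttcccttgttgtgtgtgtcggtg
Max promoter: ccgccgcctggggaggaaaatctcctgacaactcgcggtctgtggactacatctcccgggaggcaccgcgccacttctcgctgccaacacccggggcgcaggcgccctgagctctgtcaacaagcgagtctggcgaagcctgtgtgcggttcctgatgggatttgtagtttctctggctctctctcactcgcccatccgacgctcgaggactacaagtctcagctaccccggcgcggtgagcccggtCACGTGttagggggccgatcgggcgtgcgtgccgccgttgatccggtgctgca
Mlx promoter: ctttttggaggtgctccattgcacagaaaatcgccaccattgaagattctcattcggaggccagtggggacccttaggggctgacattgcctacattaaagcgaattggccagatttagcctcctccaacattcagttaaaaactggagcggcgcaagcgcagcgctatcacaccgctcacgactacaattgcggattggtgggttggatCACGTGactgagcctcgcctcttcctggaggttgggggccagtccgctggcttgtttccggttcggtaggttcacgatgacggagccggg
Mycn promoter: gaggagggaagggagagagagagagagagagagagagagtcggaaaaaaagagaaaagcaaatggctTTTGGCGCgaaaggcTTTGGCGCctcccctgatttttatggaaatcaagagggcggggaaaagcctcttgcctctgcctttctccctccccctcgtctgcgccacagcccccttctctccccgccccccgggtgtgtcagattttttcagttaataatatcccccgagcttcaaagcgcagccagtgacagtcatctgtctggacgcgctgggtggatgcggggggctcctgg
Counted from the annotated start, the E-box begins at -123 in Mnt (chr11:74830674-74830973, +), at -3 in Max (chr12:76962199-76962498, -) and at -40 in Mlx (chr11:101087040-101087339, +). The E2F sites begin at -183 and -168 in Mycn (chr12:12941787-12942086, -). A match is a description of the letters, and no binding was measured here.

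The libraries held between 3466436 and 23872837 counts, so that 3 counts stood for 0.116 to 0.983 CPM (counts scaled to library size by TMM). Protein-coding genes took 41.3% to 84.7% of the counts, and the 6 KO#2-labelled ones lay at 76.3% to 84.7%. The targeted gene, Hmga2, stood at 17.4, 13.3 and 22.3 CPM in wt cells at 0 h, at 10.2, 4.59 and 1.75 in KO#1 and at 4.10, 1.84 and 8.24 in KO#2. At 24 h it stood at 5.86, 5.51 and 5.93 CPM in wt cells, at 3.67, 2.25 and 0.870 in KO#1 and at 10.4, 3.02 and 3.47 in KO#2. Hmga2 RNA was lower than in wt cells in all libraries of both clones at 0 h. That difference was called for KO#2 (log2 fold change -1.90, edgeR adjusted p = 0.023) and not for KO#1 (-1.71, adjusted p = 0.12). At 24 h all KO#1 values lay below wt, and the difference was not called either (-1.36, adjusted p = 0.22). The KO#2 values at 24 h lay on both sides of wt (log2 fold change -0.04, adjusted p = 0.97), so these libraries are called KO#2-labelled throughout. RNA counted over a whole gene need not fall when a protein is lost. The 10 pluripotency markers summed to 1684 to 3869 CPM over the libraries. Of the 8 fibroblast markers of the feeders, Dcn was below 1 CPM in every wt and KO#1 library at 0 h, and their sum was 110 to 390 CPM in wt cells at 0 h and 19.0 to 34.5 at 24 h. The matching sums were 183 to 514 and 38.7 to 51.8 CPM in KO#1, and 331 to 897 and 70.9 to 219 CPM in the KO#2-labelled libraries. The markers did not move together, since over time 6 fell and Dcn rose in wt cells and in KO#1 (edgeR adjusted p = 2.5e-05 and 0.026), and 3 fell in the KO#2-labelled libraries. In bulk RNA, fewer cells of a type and less RNA per cell cannot be told apart.

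**Figure D1:**
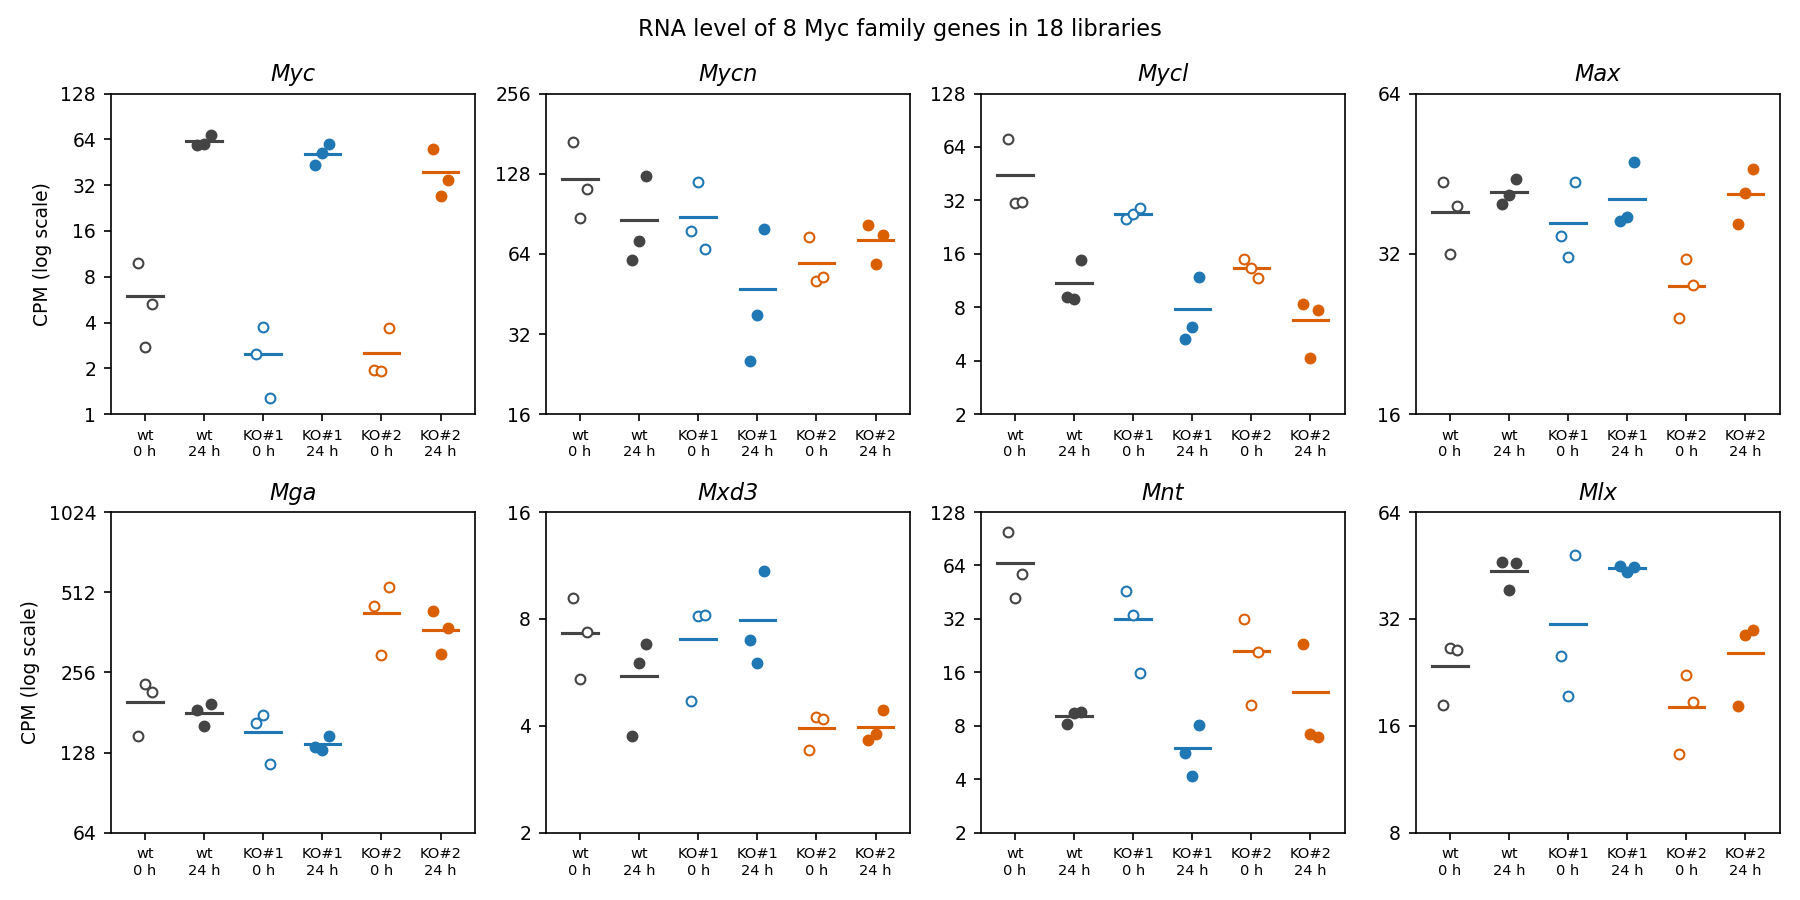
CPM on a log scale for each of the 8 genes in the 18 libraries. Open points are 0 h, filled points 24 h, and short lines the mean of 3 libraries. Myc lies at 1.28 to 9.83 CPM in the 9 libraries at 0 h and at 27.1 to 68.1 in the 9 at 24 h.

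The first comparison asked how the family responds when pluripotent cells are induced into EpiLCs. In wt cells Myc and Mlx rose and Mycl and Mnt fell between 0 h and 24 h, while Mycn, Max, Mga and Mxd3 did not pass the test. Thus 4 of the 8 genes were called (edgeR quasi-likelihood F test, Benjamini-Hochberg adjusted p under 0.05), beside 50.7% of all genes tested. In KO#1 3 of 8 were called, beside 40.8% of all genes, and in the KO#2-labelled libraries 2 of 8, beside 26%. The number of genes called in the family is therefore close to the background, and the values of the single genes carry the description. Of all genes called over time, 51.3% were higher at 24 h in wt cells and 49.4% in KO#1, against 21.4% and 11.4% where counts were scaled by library size alone.

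Myc, the member with the largest change, stood at 9.83, 2.75 and 5.33 CPM in wt cells at 0 h and at 58.8, 59.6 and 68.1 at 24 h. In KO#1 it stood at 2.47, 3.76 and 1.28 CPM and then at 43.2, 51.8 and 59.4. The KO#2-labelled libraries had 1.95, 1.93 and 3.69 CPM and then 55.3, 27.1 and 34.4. Every library at 24 h was above every library at 0 h in all 3 lines. The rise was 11.3-fold in wt cells (log2 fold change 3.50 ± 0.43 SE, edgeR adjusted p = 7.5e-06), 22.3-fold in KO#1 (4.48 ± 0.46, adjusted p = 2.4e-06) and 15.4-fold in the KO#2-labelled libraries (3.95 ± 0.42, adjusted p = 5.2e-06). These values rest on 18 to 77 reads per library at 0 h and 507 to 1104 at 24 h. The rise was called under all the alternative settings tried, between 2.89 and 4.40 in wt cells, 3.69 and 5.54 in KO#1 and 3.61 and 4.74 in the KO#2-labelled libraries.

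Mycn, the paralog most abundant in undifferentiated cells here, stood at 169, 87.2 and 112 CPM in wt cells at 0 h and at 60.5, 71.8 and 126 at 24 h. The groups overlapped and the difference did not pass the test (-0.51 ± 0.38, edgeR adjusted p = 0.27). In KO#1 the values were 77.9, 119 and 66.6 CPM at 0 h and 25.4, 37.6 and 79.1 at 24 h (-0.89 ± 0.38, adjusted p = 0.069), and this fall was called with library sizes alone, without a filter, with 10 counts in every library and with offsets for length and GC content (adjusted p from 0.0070 to 0.045). For the KO#2-labelled libraries they were 74.2, 50.8 and 52.2 CPM and then 82.5, 58.9 and 75.3 (0.29 ± 0.37, adjusted p = 0.61). The 95% intervals of the log2 fold change ran from -1.3 to 0.28, from -1.68 to -0.09 and from -0.50 to 1.07 in the 3 lines.

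Mycl, the third paralog, stood at 71.1, 30.8 and 31.3 CPM in wt cells at 0 h and at 9.14, 8.91 and 14.8 at 24 h. In KO#1 it stood at 25.3, 26.7 and 28.9 CPM and then at 5.29, 6.23 and 11.9. In both lines all libraries at 24 h were below all libraries at 0 h, and Mycl fell by 2.00 ± 0.37 on the log2 scale in wt cells (edgeR adjusted p = 0.00031) and by 1.78 ± 0.37 in KO#1 (adjusted p = 0.0013). In the KO#2-labelled libraries it stood at 15.1, 13.3 and 11.7 CPM and then at 8.41, 4.14 and 7.77, also without overlap, and the difference of -0.98 ± 0.36 missed the threshold (adjusted p = 0.052), while 9 of the alternative settings called it, DESeq2 among them (adjusted p = 0.043).

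**Figure D2:**
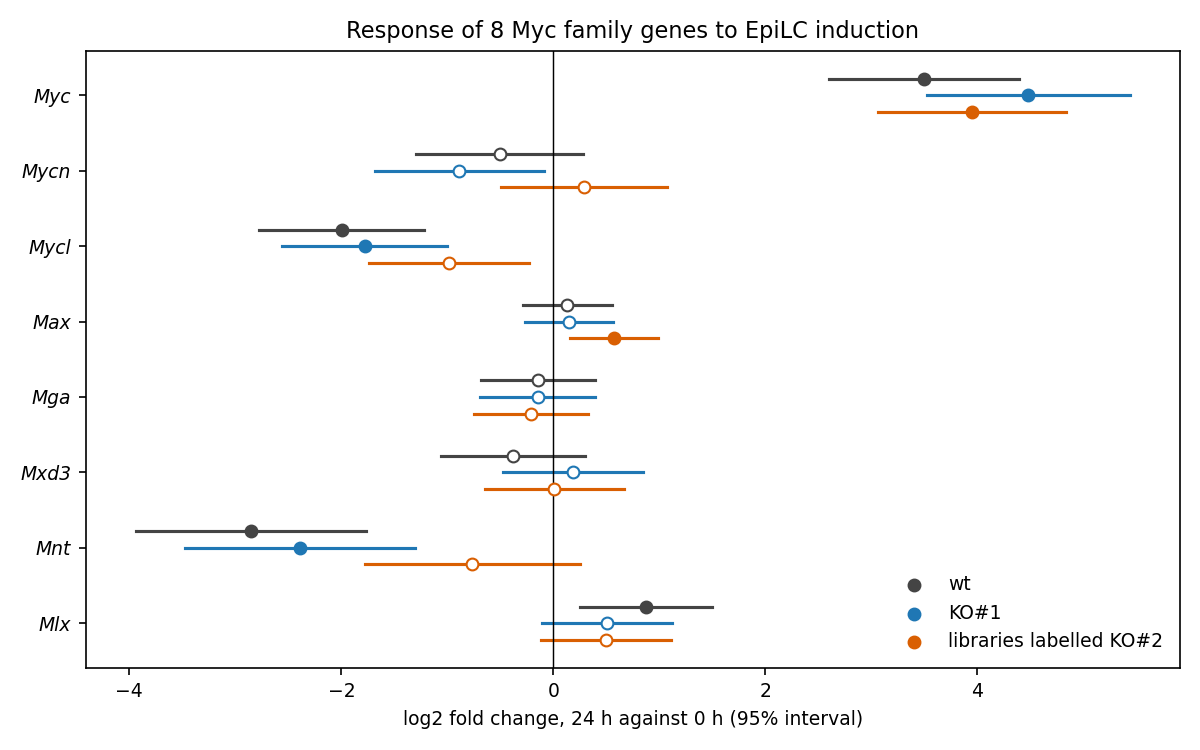
Log2 fold change from 0 h to 24 h for the 8 genes (points, with 95% intervals) in wt cells, KO#1 and the KO#2-labelled libraries. Filled points passed the test. Every interval of Myc starts at 2.60 or above, and the points of Mycl and Mnt lie on the left in all 3 lines.

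The balance of the paralogs was then read within each library, where a common scaling cancels. Per kilobase of exon, Mycn made up 74.6% ± 3.59 (SD, n = 3) of the summed Myc, Mycn and Mycl level in wt cells at 0 h, Mycl 21.3% ± 3.30 and Myc 4.13% ± 1.10. At 24 h Myc made up 45.5% ± 7.11, Mycn 49.3% ± 6.97 and Mycl 5.21% ± 0.353. In KO#1 the share of Myc went from 2.59% ± 0.782 to 56.0% ± 9.97, and in the KO#2-labelled libraries from 4.36% ± 2.13 to 37.1% ± 5.02. The share of Myc was thus at most 6.75% in the 9 libraries at 0 h and at least 33.8% in the 9 libraries at 24 h. The log2 ratio of Mycn to Myc changed by -4.39 over the 3 lines (exact permutation test within lines, two-sided, p = 0.00025, the smallest of 8000 splits, and 0.00025 adjusted over the 3 ratios tested). For wt cells alone it changed by -4.08, for KO#1 by -5.46 and for the KO#2-labelled libraries by -3.64, each at p = 0.1 by the exact permutation test, the smallest that 3 against 3 allows. The log2 ratio of Mycl to Mycn also changed, by -1.2 (exact permutation test, p = 0.00025). The summed level of the 3 paralogs was 50.4 ± 19.6 CPM per kilobase in wt cells at 0 h and 51.7 ± 13.3 at 24 h, 34.3 ± 8.70 and 35.3 ± 12.3 in KO#1, and 22.2 ± 4.18 and 37.9 ± 9.30 in the KO#2-labelled libraries. Unlike the shares, this sum depends on the scaling. With library sizes alone it was 50.5 ± 12.8 and 35.7 ± 15.9 in wt cells, 38.8 ± 7.17 and 24.3 ± 14.4 in KO#1, and 31.7 ± 6.48 and 52.8 ± 13.3 in the KO#2-labelled libraries.

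**Figure D3:**
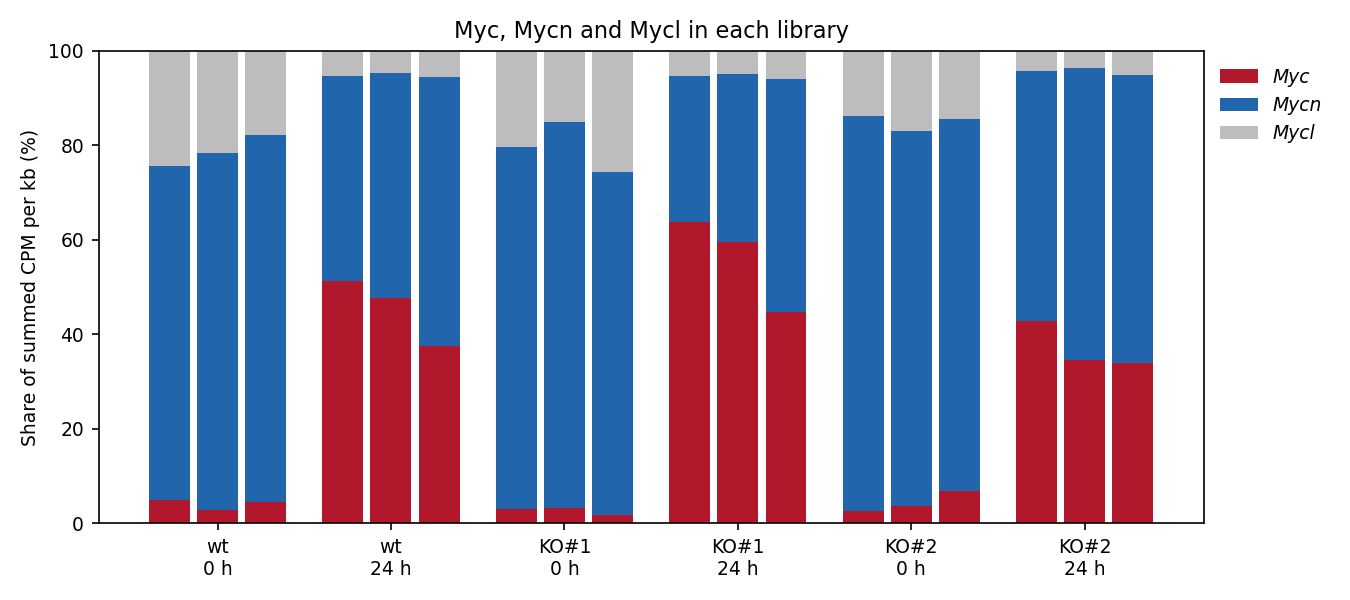
Share (%) of Myc, Mycn and Mycl in their summed CPM per kilobase of exon in each of the 18 libraries, 3 bars per group. Myc takes at most 6.75% of each bar at 0 h and 33.8% to 63.8% at 24 h.

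Max, the obligate partner of the paralogs, passed the test in neither wt cells nor KO#1. In wt cells it stood at 43.6, 31.9 and 39.3 CPM at 0 h and at 39.7, 41.2 and 44.3 at 24 h (0.13 ± 0.20, edgeR adjusted p = 0.60). In KO#1 it stood at 34.6, 31.5 and 43.8 CPM and then at 37.0, 37.5 and 47.5 (0.15 ± 0.20, adjusted p = 0.58). In the KO#2-labelled libraries it rose from 24.3, 31.3 and 27.9 CPM to 36.4, 41.6 and 46.3, with no overlap (0.57 ± 0.20, adjusted p = 0.040). That call was lost without KO#2 replicate 1 or 3 at 0 h (adjusted p = 0.16 and 0.094) and without replicate 2 or 3 at 24 h (0.081 and 0.15). It was also lost with a covariate for the fibroblast markers (0.40, adjusted p = 0.38), with library sizes alone (0.54, adjusted p = 0.25), without a filter on low counts (adjusted p = 0.17) and after thinning (adjusted p = 0.073).

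Mnt, a repressor that shares E-boxes with Myc, fell in wt cells from 98.6, 41.9 and 57.2 CPM to 8.15, 9.41 and 9.57. In KO#1 it fell from 45.7, 33.8 and 15.9 CPM to 5.66, 4.19 and 8.08. No library at 24 h reached a library of the same line at 0 h, and the log2 fold change was -2.85 ± 0.52 in wt cells (edgeR adjusted p = 0.00026) and -2.39 ± 0.52 in KO#1 (adjusted p = 0.0017). In the KO#2-labelled libraries Mnt stood at 31.9, 10.5 and 20.8 CPM and then at 23.2, 7.23 and 6.90, the groups overlapped, and the difference was -0.76 ± 0.48 (adjusted p = 0.26). It was called with offsets for length and GC content and a replicate block together (-0.78, adjusted p = 0.016). Over all settings tried, single libraries left out among them, it ran from -1.57 to -0.06. With the mean log2 CPM of the 8 fibroblast markers, Dcn included, as a covariate, the value of Mnt was -1.84 in wt cells (adjusted p = 0.053) and -1.19 in KO#1 (adjusted p = 0.31), and that of Mycl in KO#1 was -1.55 (adjusted p = 0.090). This mean was lower at 24 h in each line, so its part and that of time cannot be told apart.

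Mlx stood at 18.4, 26.4 and 26.1 CPM in wt cells at 0 h and at 46.2, 38.5 and 46.0 at 24 h, a rise of 0.87 ± 0.30 on the log2 scale (edgeR adjusted p = 0.021). In KO#1 it stood at 25.1, 19.4 and 48.4 CPM and then at 45.1, 43.4 and 44.9 (0.51 ± 0.29, adjusted p = 0.17). Over all settings tried, single libraries left out among them, the value in KO#1 ran from -0.30 to 0.998. The lowest adjusted p was 0.0082, so at least 1 of these settings called it. The KO#2-labelled libraries had 13.4, 22.2 and 18.7 CPM and then 18.2, 28.9 and 29.7 (0.50 ± 0.29, adjusted p = 0.22). The groups overlapped in both clones. In wt cells the call was lost without replicate 1 at 0 h (0.70, adjusted p = 0.104) and without replicate 1 or 3 at 24 h (adjusted p = 0.067 and 0.069). It was also lost with library sizes alone (0.25, adjusted p = 0.60), with the fibroblast covariate (0.39, adjusted p = 0.50), after thinning to the smallest library (0.59, adjusted p = 0.13) and with offsets for exon length and GC content (0.30, adjusted p = 0.19). Short genes as a class were higher at 24 h in wt cells, with a median log2 fold change of 0.92 for protein-coding genes of 1000 to 2000 bases.

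Mga and Mxd3 passed the test over time in none of the 3 lines. Mga, the scaffold that joins Max to PRC1.6, had log2 fold changes of -0.14, -0.15 and -0.21 (edgeR adjusted p = 0.66, 0.67 and 0.59). With library sizes alone Mga was called lower at 24 h in KO#1 (-0.93, adjusted p = 0.039). Mxd3, a repressor associated with cycling progenitors, had values of -0.38, 0.19 and 0.01 (adjusted p = 0.34, 0.66 and 0.99). Mxd3 lay between 3.41 and 10.9 CPM in all 18 libraries.

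Per kilobase of exon, the order of the family in wt cells at 0 h was Mycn (37.2 ± 12.7 CPM per kilobase, SD, n = 3), Mnt (14.2 ± 6.34), Mga (13.0 ± 2.91), Mlx (11.8 ± 2.28), Mycl (11.0 ± 5.73), Max (10.6 ± 1.64), Mxd3 (3.08 ± 0.795) and Myc (2.20 ± 1.32). The ranges of Mnt to Max overlapped one another, as did those of Mxd3 and Myc, while Mycn stood above the rest. At 24 h the order was Mycn (26.1 ± 10.6), Myc (22.9 ± 1.91), Mlx (21.8 ± 2.18), Mga (11.8 ± 1.15), Max (11.6 ± 0.649), Mycl (2.71 ± 0.819), Mxd3 (2.33 ± 0.666) and Mnt (1.95 ± 0.168). The first 3 overlapped, as did Mga with Max and Mxd3 with both Mycl and Mnt, while the ranges of Mycl and Mnt did not overlap. Myc went from the last place to the second and Mnt from the second to the last.

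The genes most like Myc, Mycn, Mycl and Mxd3 over the 18 libraries were sought among 10141 protein-coding genes by Pearson correlation of log2 CPM. For Myc they were Slc7a7 (r = 0.973), Mkrn1 (0.971) and Pim2 (0.965). For Mycn they were Tmem214 (0.923), Unk (0.917) and Atxn7l3 (0.913). For Mycl they were Patz1 (0.950), Tnip1 (0.942) and Uba1 (0.940), and for Mxd3 Zfp689 (0.882), Tbc1d10a (0.879) and Ankrd9 (0.873). The 18 points fall in 6 groups that share time and line, and the likeness describes these libraries.

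The next question was how the Hmga2 clones differ from wt cells. With TMM scaling and the filter on low counts, none of the 8 genes was called between KO#1 and wt cells at 0 h or at 24 h by edgeR, nor by DESeq2, beside 6.67% (3.99% higher, 2.68% lower) and 9.84% (6.25% higher, 3.6% lower) of all genes called by edgeR. At an unadjusted p under 0.05, 2 members passed at 0 h and 1 at 24 h. The largest differences were -1.26 ± 0.46 for Myc and -1.05 ± 0.49 for Mnt at 0 h (edgeR adjusted p = 0.12 and 0.24), and -0.86 ± 0.38 for Mycn at 24 h (adjusted p = 0.18). The 95% interval of Myc at 0 h ran from -2.23 to -0.29, so these values do not show that the lines are alike. Without the filter on low counts Myc and Mnt were called at 0 h (-1.25 and -1.04, adjusted p = 0.017 and 0.017), Myc was called with the fibroblast covariate described above (-1.62, adjusted p = 0.032), and Mycn was called at 24 h with offsets for exon length and GC content (-0.97, adjusted p = 0.030). At 24 h the same-numbered libraries of wt cells and KO#1 deviated together from their group means (r from 0.22 to 0.59). With the replicate number as a block in these 2 groups, Mycn was called lower in KO#1, by 0.95 ± 0.28 on the log2 scale (edgeR adjusted p = 0.037), beside 10.9% of all genes called. Its values of 25.4, 37.6 and 79.1 CPM in KO#1 stood against 60.5, 71.8 and 126 in the wt library of the same number. With offsets for exon length and GC content in the blocked fit the difference of Mycn was -1.01 (adjusted p = 0.0085), and the other 7 genes were called in neither blocked fit. Over all settings tried, single libraries left out among them, the difference of Mycn at 24 h ran from -1.43 to -0.43.

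The libraries labelled KO#2 differed from wt cells in 6 of 8 genes at 0 h, beside 38.1% of all genes. Mga was higher by 1.11 ± 0.26 on the log2 scale (edgeR adjusted p = 0.0038), a fold of 2.15. Lower were Mycl (-1.71 ± 0.36, adjusted p = 0.0020), Mnt (-1.63 ± 0.49, adjusted p = 0.016), Myc (-1.13 ± 0.42, adjusted p = 0.043), Mycn (-1.05 ± 0.38, adjusted p = 0.037) and Mxd3 (-0.86 ± 0.32, adjusted p = 0.042). All 3 paralogs were thus lower at 0 h, and Max (-0.45, adjusted p = 0.079) and Mlx (-0.40, adjusted p = 0.29) did not pass. DESeq2 called 7 of 8, with Max among them (-0.50, adjusted p = 0.029), and edgeR with RLE size factors also called Max (-0.51, adjusted p = 0.0497). At 24 h 2 of 8 were called, beside 37.3% of all genes. Mga was again higher (1.04 ± 0.26, adjusted p = 0.0047) and Mlx was lower (-0.77 ± 0.29, adjusted p = 0.047), while Myc (-0.68, adjusted p = 0.16) and Mycl (-0.70, adjusted p = 0.14) were not called. The libraries of both groups did not overlap for Myc, which was called lower with only these groups in the fit (-0.77, adjusted p = 0.033) and with the fibroblast covariate (-1.68, adjusted p = 0.045). Max and Mnt were called higher at 24 h with library sizes alone (1.03 and 1.52, adjusted p = 0.0073 and 0.012). Under that scaling Myc, Mycl and Mlx changed sign, to 0.36, 0.30 and 0.25, and were not called. Against KO#1, Mga was higher and Mycl lower in the KO#2-labelled libraries at 0 h (2 of 8 called, beside 26.4% of all genes), and at 24 h Mga was higher and Mlx and Mxd3 lower (3 of 8, beside 35.4%). With offsets for length and GC content these calls were lost (Mga 0.48 and Mycl -0.48 at 0 h, adjusted p = 0.096 and 0.22, and Mga 0.33, Mlx -0.24 and Mxd3 -0.38 at 24 h, adjusted p = 0.21, 0.32 and 0.25), while at 24 h Mnt and Mycn were called higher in the KO#2-labelled libraries than in KO#1 (1.24 and 1.09, adjusted p = 0.011 and 0.0091). With library sizes alone the calls of Mycl, Mlx and Mxd3 were lost as well (-0.70, 0.28 and -0.0032, adjusted p = 0.25, 0.52 and 0.996).

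The scaling weighs on these comparisons, since 56.4% of all genes called at 0 h and 57.1% at 24 h were higher in the KO#2-labelled libraries than in wt cells, against 90.3% and 94.8% with library sizes alone. Several of these calls rested on single libraries. Without wt replicate 1 at 0 h, the values of Myc, Mycn, Mxd3 and Mnt in the KO#2-labelled libraries were -0.71, -0.78, -0.72 and -1.27 (edgeR adjusted p = 0.19, 0.15, 0.13 and 0.069). Without wt replicate 3, Myc, Mycn and Mxd3 had adjusted p = 0.091, 0.063 and 0.10. Without KO#2 replicate 1 Myc and Mxd3 had 0.13 and 0.12, without replicate 2 Myc, Mycn, Mxd3 and Mnt had 0.13, 0.11, 0.074 and 0.066, and without replicate 3 Mycn and Mxd3 had 0.10 and 0.075. With library sizes alone Mnt, Mycn, Myc and Mxd3 took -1.11, -0.54, -0.66 and -0.40 at 0 h (adjusted p = 0.084, 0.37, 0.27 and 0.49). Mga and Mycl kept their calls at 0 h without any 1 library, and Mga kept its call at 24 h, but with the fibroblast covariate Mga took 0.73 and 0.63 at the 2 times (adjusted p = 0.15 and 0.29). The call of Mlx at 24 h was lost without any 1 of the 6 libraries (adjusted p from 0.052 to 0.19).

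Mga is the longest member, and differences between the KO#2-labelled libraries and wt cells went with exon length over the whole table. Among protein-coding genes the median log2 fold change at 0 h was -0.56 under 1000 bases, -0.36 from 2000 to 4000 bases and 0.51 from 10000 bases on. At 24 h these medians were -1.46, -0.33 and 0.78. Of 1090 genes of at least 10000 bases, 42.2% were called higher at 0 h and 49.7% at 24 h. Mga stood at 148, 232 and 217 CPM in wt cells and at 456, 297 and 533 in the KO#2-labelled libraries at 0 h, and at 185, 161 and 195 and then 434, 301 and 376 CPM at 24 h. The groups did not overlap at either time, with 165, 178 and 116 CPM in KO#1 at 0 h and 135, 131 and 147 at 24 h. With offsets for exon length and GC content the difference from wt cells was 0.08 at 0 h (edgeR adjusted p = 0.80) and 0.07 at 24 h (adjusted p = 0.81). Under the same offsets Mycl was the only member called in the KO#2-labelled libraries at 0 h (-0.95, adjusted p = 0.014), and none was called at 24 h.

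**Figure D4:**
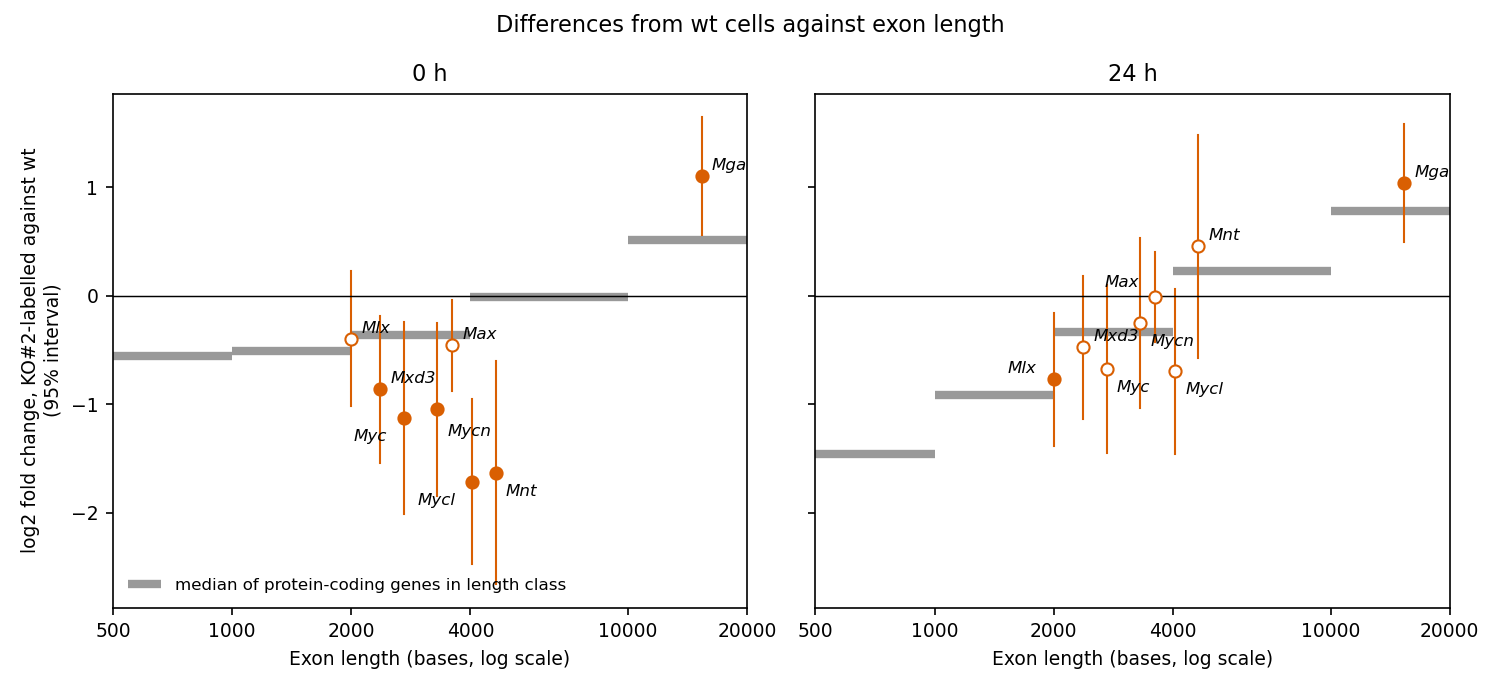
Log2 fold change of the KO#2-labelled libraries against wt cells for the 8 genes (points, with 95% intervals, filled where the test was passed) against exon length, at 0 h and 24 h. Grey bars are medians of protein-coding genes by length class, rising from -0.56 to 0.51 at 0 h and from -1.46 to 0.78 at 24 h, with Mga at the long end.

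Whether the clones respond differently from wt cells was tested as an interaction. None of the 8 genes passed in KO#1 (0 at an unadjusted p under 0.05, and 0 by DESeq2), beside 0.391% of all genes (0.253% higher), and none passed in the KO#2-labelled libraries by edgeR (1 unadjusted, 1 by DESeq2), beside 1.47% (0.951% higher). The largest value was that of Mnt in the KO#2-labelled libraries, 2.09 ± 0.69 (edgeR adjusted p = 0.10), followed by Mycl with 1.02 ± 0.51 (adjusted p = 0.23). For Myc the difference in response was 0.99 ± 0.59 in KO#1 (adjusted p = 0.62), with an interval from -0.25 to 2.22. The difference of Mnt was called by DESeq2 (2.16, adjusted p = 0.033), with library sizes alone (2.63, adjusted p = 0.036), without a filter on low counts (2.08, adjusted p = 0.00015) and with the replicate block and offsets for length and GC content together (1.27, adjusted p = 0.036), so whether the response of Mnt differs depends on the setting.

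The other genes around Myc were read from lists. Of 30 ribosome biogenesis genes that Myc is known to activate, 26 rose and 1 fell in wt cells, with a median log2 fold change of 1.38 beside 0.03 over all genes. In KO#1 21 rose and 0 fell (median 0.99 beside 0.00) and in the KO#2-labelled libraries 20 rose and 0 fell (0.98 beside -0.03). The background called higher was 26%, 20.1% and 12.7% of all genes. The largest rises in wt cells were those of Gnl3, a nucleolar GTPase (2.31, edgeR adjusted p = 0.00016), Nip7, a pre-rRNA processing factor (2.24, adjusted p = 0.00019), and Npm1, nucleophosmin (2.04, adjusted p = 0.0046). Tcof1, a nucleolar factor for rRNA transcription, was the gene that fell (-1.45, adjusted p = 0.016). The call of Tcof1 was lost with the fibroblast covariate (-0.24, adjusted p = 0.81), with offsets for length and GC content (-0.56, adjusted p = 0.11) and without wt replicate 1 at 0 h (-0.89, adjusted p = 0.13) or at 24 h (-1.35, adjusted p = 0.057). Npm1 took 1.8 with the covariate (adjusted p = 0.10), 0.93 with the offsets and 1.33 with library sizes alone. With offsets for length and GC content 28, 23 and 24 rose, with library sizes alone 13, 5 and 12, and with the fibroblast covariate 15, 5 and 6. Leaving out 1 library gave 25 to 27 in wt cells, 13 to 23 in KO#1 and 13 to 18 in the KO#2-labelled libraries. Summed markers of cycling cells were also higher at 24 h, at 1400 to 1913 CPM and then 3333 to 3474 in wt cells, and their part was not tested.

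**Figure D5:**
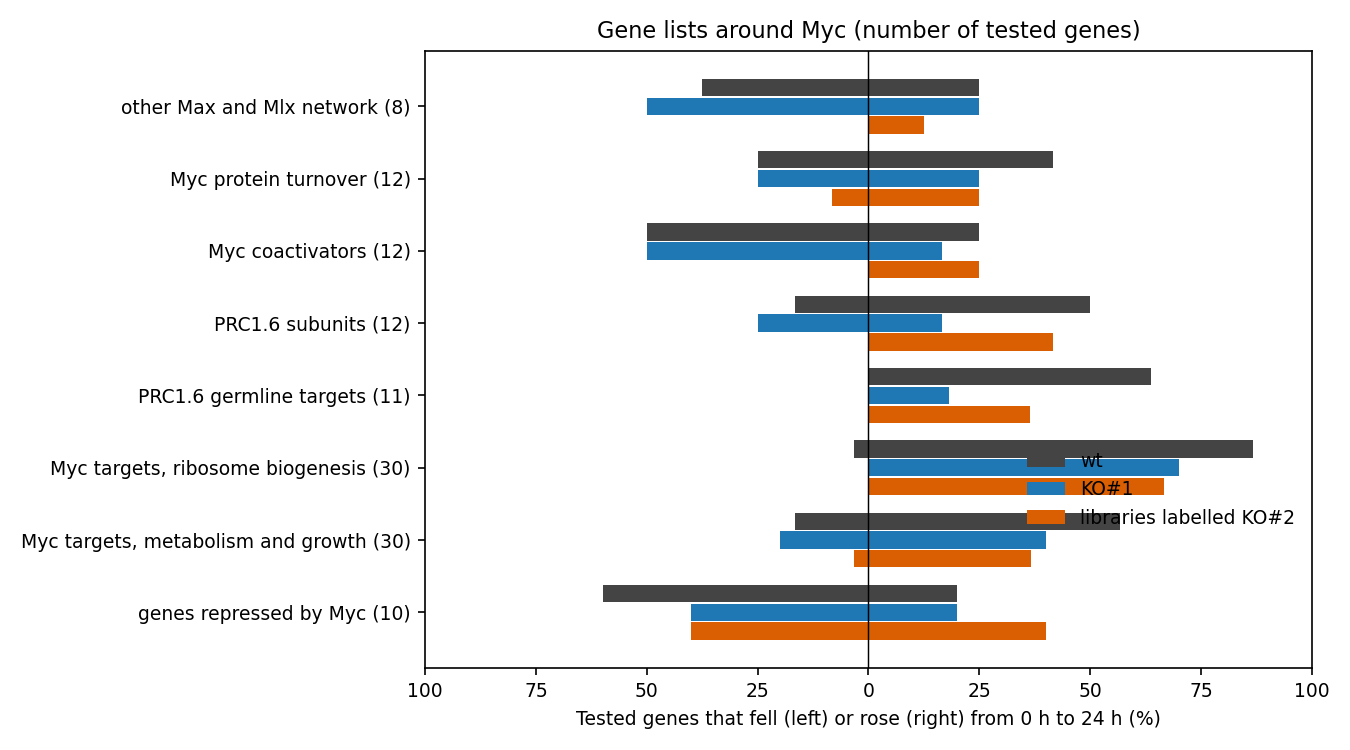
Percentage of the tested genes of each list that rose (right) or fell (left) between 0 h and 24 h in wt cells, KO#1 and the KO#2-labelled libraries, with the number tested in brackets. The ribosome biogenesis list has 26, 21 and 20 of 30 genes on the right.

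Of 30 metabolism and growth targets, 17 rose and 5 fell in wt cells, 12 rose and 6 fell in KO#1, and 11 rose and 1 fell in the KO#2-labelled libraries. Of all genes 26%, 20.1% and 12.7% rose and 24.7%, 20.6% and 13.3% fell in the 3 lines, so that the falls of this list were at or below the background. In wt cells the mitochondrial chaperones Hspd1 and Hspe1 rose by 2.74 and 2.25 on the log2 scale (edgeR adjusted p = 4.2e-06 and 0.0014), and Odc1, the first enzyme of polyamine synthesis, by 2.13 (adjusted p = 5.4e-05). Pprc1, a coactivator of mitochondrial genes, fell by 1.95 (adjusted p = 0.0057), Shmt2, a mitochondrial serine hydroxymethyltransferase, by 1.61 (adjusted p = 0.0015) and Tert, the telomerase reverse transcriptase, by 1.18 (adjusted p = 0.0098). With the fibroblast covariate Pprc1 took -0.58 (adjusted p = 0.54), and Shmt2, Tert and Hspe1 took -1.34, -1.26 and 1.61 and were not called either (adjusted p = 0.078, 0.084 and 0.098). With the length and GC offsets Pprc1 took -1.01, Hspe1 0.93 and Tert -0.55, of which that of Tert was not called (adjusted p = 0.10). Of 10 genes that Myc is known to repress, 6 fell and 2 rose in wt cells, 4 fell and 2 rose in KO#1, and 4 fell and 4 rose in the KO#2-labelled libraries, beside the same shares of all genes. Among those that fell in wt cells were Thbs1, an antiangiogenic matrix protein (-3.77, adjusted p = 1.5e-05), Cdkn1b, the cell cycle inhibitor p27 (-3.34, adjusted p = 4.7e-08), and Ndrg1 (-2.78, adjusted p = 8.8e-05). Cdkn2b (1.54, adjusted p = 0.00073) and Gadd45a (1.3, adjusted p = 0.010) rose. With library sizes alone these rises were 0.95 and 0.67 (adjusted p = 0.077 and 0.18), and Gadd45a was also not called with the covariate (1.55, adjusted p = 0.064) or the offsets (0.51, adjusted p = 0.37). Thbs1 took -2.42 with the covariate.

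Between the clones and wt cells at 24 h, none of the 30 ribosome biogenesis genes was called in KO#1 by edgeR or DESeq2 (2 at an unadjusted p under 0.05). In the KO#2-labelled libraries 14 were lower and 0 higher, beside 16% of all genes called lower, and in all 30 the median was -0.73 beside 0.20 over all genes. At 0 h, before induction, 13 were lower and 4 higher (median -0.70, beside 16.6% and 21.5% of all genes), against 1 lower and 7 higher there with library sizes alone and 4 lower and 1 higher with the offsets or the fibroblast covariate. For the difference between the response to induction of these libraries and that of wt cells, 0 of the 30 passed by edgeR or DESeq2 (4 at an unadjusted p under 0.05). At 24 h the count of lower genes was 11 with offsets for length and GC content, 3 with the fibroblast covariate, and with library sizes alone 0 were lower and 4 higher. Summed markers of cycling cells at 24 h stood at 3333 to 3474 CPM in wt cells, 3487 to 3770 in KO#1 and 2391 to 3087 in the KO#2-labelled libraries. Their part in this difference was not tested. Of the 10 genes Myc is known to repress, 2 were higher and 0 lower in KO#1 at 24 h, and 4 were higher and 1 lower in the KO#2-labelled libraries, beside 6.25% and 21.3% of all genes called higher and 3.6% and 16% called lower. DESeq2 called 4 of the 10 in KO#1 and 5 in the KO#2-labelled libraries, and 7 and 6 had an unadjusted p under 0.05 by edgeR. Cdkn1b was higher in both clones, by 1.01 in KO#1 (edgeR adjusted p = 0.0050) and 1.23 in the KO#2-labelled libraries (adjusted p = 0.00034). In KO#1 that call was lost with library sizes alone (adjusted p = 0.086) and after thinning to the smallest library (0.058), and in the KO#2-labelled libraries the value was 2.25 with library sizes alone. Gata6, a primitive endoderm regulator, was also higher in both (2.13, adjusted p = 0.042, and 4.33, adjusted p = 7.8e-05). These values stand over 2 to 7 reads of Gata6 per wt library, 0.200 to 0.410 CPM, against 0.622 to 2.42 CPM in KO#1 and 4.56 to 10.3 in the KO#2-labelled libraries. The call of Gata6 in KO#1 was lost without any 1 of 5 of the 6 libraries (adjusted p from 0.064 to 0.22), with the replicate block (0.0502), with library sizes alone, with only these 2 groups in the fit and with the fibroblast covariate (from 0.057 to 0.088), and after thinning (0.43). The 8 primitive endoderm markers, Gata6 among them, summed to 45.9 to 74.9 CPM in wt cells at 24 h, 61.4 to 112 in KO#1 and 106 to 176 in the KO#2-labelled libraries. Sox7 and Foxa2 were below 1 CPM in every one of these libraries. Gata4, Sox17 and Dab2 were below it in every wt and KO#1 library, and Gata6 in every wt library. Of 7 markers tested at 24 h, 2 were called higher and 1 lower in KO#1, and 6 higher and 0 lower in the KO#2-labelled libraries.

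Among 8 tested genes of the wider Max and Mlx network, 2 rose and 3 fell in wt cells, beside 26% and 24.7% of all genes, so that the rises were at the background. Mxd4, a Max-binding repressor, rose by 1.78 on the log2 scale (edgeR adjusted p = 0.0059) and Usf1, another E-box factor, by 1.14 (adjusted p = 0.0027). Mlxip, a Mondo partner of Mlx, fell by 1.46 (adjusted p = 0.028), Mxd1 by 1.28 (adjusted p = 0.0087) and Usf2 by 0.85 (adjusted p = 0.0041). All 5 calls were lost with the fibroblast covariate, where Mlxip took -0.49 (adjusted p = 0.63), while Mxd4 took 1.73, Usf1 0.98, Mxd1 -1.37 and Usf2 -0.67 (adjusted p = 0.071, 0.097, 0.060 and 0.14). With library sizes alone Mxd4 and Usf1 took 1.23 and 0.58 (adjusted p = 0.073 and 0.22), and Usf2 -1.45. With the offsets Mlxip and Mxd1 took -0.55 and -0.77 (adjusted p = 0.26 and 0.051). Mlxip was also lost without wt replicate 1 or 3 at 0 h or replicate 2 at 24 h (0.062, 0.056 and 0.082), and Mxd1 without wt replicate 3 at 0 h (0.092). In KO#1 2 rose and 4 fell, beside 20.1% and 20.6%, and in the KO#2-labelled libraries 1 rose and 0 fell, beside 12.7% and 13.3%. The ninth gene of the list, Mycs, had between 0 and 2 counts in each library and was not tested. Of 12 genes that control Myc protein turnover, 5 rose and 3 fell in wt cells, 3 rose and 3 fell in KO#1, and 3 rose and 1 fell in the KO#2-labelled libraries. The falls in wt cells and both counts in KO#1 were near the shares of all genes just given. Skp2, a ubiquitin ligase subunit, rose by 1.24 (edgeR adjusted p = 0.00057) in wt cells, while Gsk3b, a kinase that marks Myc for destruction, fell by 2.25 (adjusted p = 0.00016) and the ubiquitin ligase Huwe1 by 1.29 (adjusted p = 0.0022). The call of Huwe1 was lost with the offsets (-0.28, adjusted p = 0.23) and with the covariate (-1.09, adjusted p = 0.076), and that of Skp2 with library sizes alone (0.62, adjusted p = 0.14).

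Of 12 coactivators and chromatin partners of Myc, 3 rose and 6 fell in wt cells, 2 rose and 6 fell in KO#1, and 3 rose and 0 fell in the KO#2-labelled libraries. Of all genes 26%, 20.1% and 12.7% rose and 24.7%, 20.6% and 13.3% fell in the 3 lines, so the rises of this list in wt cells and KO#1 were at or below the background. The ATPases Ruvbl1 and Ruvbl2 rose by 1.93 and 1.12 in wt cells (edgeR adjusted p = 6.3e-05 and 0.00075). The acetyltransferase Ep300 fell by 2.17 (adjusted p = 0.0029) and the chromatin remodeller Ep400 by 2.09 (adjusted p = 0.0011). With the fibroblast covariate Ep300 and Ep400 took -1.2 and -1.34 and were not called (adjusted p = 0.19 and 0.10), and with the offsets -1.06 and -0.89. Ruvbl2 was not called with library sizes alone (0.53, adjusted p = 0.18). Of 12 subunits of PRC1.6, the complex of Mga and Max, 6 rose and 2 fell in wt cells, 2 rose and 3 fell in KO#1, close to the shares of all genes, and 5 rose and 0 fell in the KO#2-labelled libraries. Cbx3 and Cbx1, readers of histone methylation, rose by 1.6 and 1.55 in wt cells (adjusted p = 0.0082 and 0.00014) and E2f6 by 1.2 (adjusted p = 0.00093), while Hdac1 and Rybp fell by 0.74 and 0.65 (adjusted p = 0.0068 and 0.015). With the fibroblast covariate Cbx3, E2f6, Hdac1 and Rybp took 1.66, 0.83, -0.41 and -0.75 and were not called (adjusted p from 0.081 to 0.32), with library sizes alone Cbx3 and E2f6 were not (0.91 and 0.58, adjusted p = 0.090 and 0.19), and without a filter on low counts Hdac1 and Rybp were not (adjusted p = 0.059 and 0.097). Hdac1 and Rybp took -1.37 and -1.26 with library sizes alone. Cbx1 took 0.93 with library sizes alone and 0.98 with the offsets, and Rybp -1.23 with the offsets. Leaving out wt replicate 1 at 0 h ended the call of Cbx3 (adjusted p = 0.0502), and leaving out wt replicate 3 at 0 h or replicate 2 at 24 h that of Rybp (0.063 and 0.056). Of 11 tested germline genes that PRC1.6 is known to silence, 7 rose in wt cells, 2 rose in KO#1 and 4 did so among the KO#2-labelled libraries, and 0 fell in any line. The count in KO#1 was below the background share. The largest rises in wt cells were those of Tex101 (3.30, adjusted p = 0.0068), Mael (3.20, adjusted p = 6.9e-05) and Stk31 (2.45, adjusted p = 0.0039). Tex101 was not called with the covariate (2.98, adjusted p = 0.078) and took 5.19 without wt replicate 2 at 0 h, and Mael and Stk31 took 2.00 and 1.49 with the offsets. CACGTG was present in 8 of 13 promoters of the germline list (61.5%), 10 of 34 of the metabolism list (29.4%) and 5 of 26 of the ribosome biogenesis list (19.2%), against the 7.15% of all promoters given above. It was present in 2 of 13 for the wider Max and Mlx network, 1 of 12 for the coactivators, 1 of 11 for PRC1.6, 1 of 10 for the genes Myc is known to repress and 0 of 14 for protein turnover. Promoters rather than genes were counted, and a gene may have more than 1 or none. The germline, metabolism and ribosome biogenesis lists were chosen as known targets of Myc or of Mga and Max. A high share there is therefore not a result of these data.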

How the data were processed

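Total RNA of 18 cultures was sequenced as stranded libraries. The deposited values are raw counts per gene, which the authors made with the nf-core rnaseq pipeline (Trim Galore, rRNA removal, STAR on GRCm38, duplicates marked with Picard). The annotation release and the strand setting are not given in the sources used here. Of 45706 gene identifiers, 45143 matched GENCODE M21. Replicates are biological per the study's methods. The labels give replicate numbers without saying that they pair samples. Of 15 pairs of groups, 1 (wt and KO#1 at 24 h) had every same-number correlation of deviations above 0.1, and a block for these 2 groups was added after seeing the data (16 of 45 pairs in all, mean 0.05 against -0.03 for other numbers). Counts were analysed with edgeR 4.0.16 in R 4.3.3 (TMM, filterByExpr at 10 counts, quasi-likelihood F test, all 6 groups in 1 fit), with p adjusted over 16619 genes and a call at 0.05. The standard error is the log2 fold change divided by the root of F. Alternatives were DESeq2 1.42.0, other scalings, filters and sample sets, thinning, a fibroblast covariate, a replicate block and, added after seeing the data, length and GC offsets and a fit without KO#2. The fit was also run on simulated counts, which held few changed genes and no trend with exon length. Its outcome there is therefore no support for the calls in these data. All 8 members are described in every group, and lists by counts with up to 3 rises and 3 falls called in wt cells, and genes called in both clones at 24 h; some genes that this rule names are not reported here. Members and lists were chosen with earlier results of these data known. Counting limits cover counting error only.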

Additional observations from a re-analysis of the deposited data

Results flagged for a closer look

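Among the genes of the lists around Myc, the response to 24 h of induction differed between the KO#2-labelled libraries and wt cells by the interaction test for 2 of 125 tested (1.6%), close to the 1.47% of all genes called. Of the marker lists, 1 pluripotency gene and 1 fibroblast gene also passed and are not described here. For Cdkn1b, the p27 cell cycle inhibitor, the difference was 1.59 ± 0.30 on the log2 scale (edgeR adjusted p = 0.013), since it fell by 3.34 in wt cells and by 1.75 in the KO#2-labelled libraries. For Ppp2r5a, a subunit of the phosphatase PP2A that acts on Myc protein, the difference was 1.23 ± 0.24 (adjusted p = 0.018), with values of -0.30 in wt cells and 0.93 in the KO#2-labelled libraries (adjusted p = 0.15 and 0.00081). Both calls were lost without wt replicate 2 at 24 h (adjusted p = 0.052 and 0.071) or KO#2 replicate 2 at 0 h (0.052 and 0.058), and that of Ppp2r5a also without KO#2 replicate 1 at 24 h (0.051).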

How the results depend on the processing

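The counts of called members moved with the setting, and the causes were not tested except where stated. With the fibroblast covariate, 2 members were called over time in wt cells, and 1 each in KO#1 and the KO#2-labelled libraries; against wt cells 1 was called in KO#1 at 0 h, and 3 and 1 in the KO#2-labelled libraries at 0 h and 24 h; against KO#1, 1 at each time. With library sizes alone these were 5 over time in KO#1, 1 over time in the KO#2-labelled libraries, 2 against wt cells at 0 h, 1 against KO#1 at 0 h and 1 for their response; this scaling shifts the median of all genes by -0.61 over time for wt cells, -0.79 for KO#1, and 0.45 and 1.04 in the KO#2-labelled libraries against wt cells at 0 h and 24 h. With length and GC offsets, 1 was called in the KO#2-labelled libraries against wt cells at 0 h and 0 at 24 h, 0 against KO#1 at 0 h, and 1 in KO#1 against wt cells at 24 h. Without a filter on low counts 2 were called in KO#1 at 0 h, 1 in the KO#2-labelled libraries at 24 h and 1 for their response. With 10 counts in every library these libraries had 3 at 0 h, 1 at 24 h and 1 against KO#1 at 0 h. Protein-coding genes alone gave 1 at 24 h, thinning gave 1 at 24 h and 1 against KO#1 at 0 h, and DESeq2 gave 1 for the response and 4 against KO#1 at 0 h. At an adjusted p under 0.01, which is stricter by construction, 1 was called over time in the KO#2-labelled libraries, 2 and 1 against wt cells, and 1 and 1 against KO#1.

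Outside wt cells and KO#1 at 24 h, no pair of groups had every same-number correlation of deviations above 0.1. Some single correlations were higher, and between the KO#2-labelled groups at 0 h and 24 h they were 0.46, 0.33 and -0.00055. Whether those samples were paired is therefore not settled. With the replicate block in wt cells and KO#1 at 24 h alone, KO#1 had 1 called member at 24 h, and 1 with offsets added. With the replicate block in all groups 4, 3 and 3 members were called over time in the 3 lines, 5 and 2 in the KO#2-labelled libraries against wt cells and 0 in KO#1, and the ratio of Mycn to Myc changed by -4.39. With the block and length and GC offsets together, the KO#2-labelled libraries had 4 over time, 2 at 0 h, 0 at 24 h, 1 for the response and 0 against KO#1 at 0 h, and KO#1 had 1 at each time.

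Leaving out 1 library gave 3 to 4 called members over time for wt cells, 3 to 5 for KO#1 and 1 to 4 for the KO#2-labelled libraries, 0 to 1 for KO#1 against wt cells at both times, 2 to 6 and 1 to 1 in the KO#2-labelled libraries, 0 to 0 for both responses, and 1 to 2 and 1 to 3 against KO#1.

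The sign changed under 39 settings of values with a test, and in 38 of these the value had not passed it. Over time in wt cells Max took -0.47 (library sizes), -0.074 (fibroblast), -0.023 (offsets) and -0.020 (offsets and replicate block), and Mga 0.23 (fibroblast), 0.090 (offsets) and 0.080 (with block). In KO#1 Max took -0.63 and -0.078, Mga 0.30, 0.23 and 0.21, Mlx -0.30 and -0.0049, and Mxd3 -0.54 and -0.17, in the same order of settings, and from -0.12 to 0.34 without 1 library. In the KO#2-labelled libraries Mga took 0.13, 0.079 and 0.082, and Mxd3 -0.028 (library sizes), -0.055 (10 counts), -0.28 (fibroblast), -0.12 (offsets), -0.12 (with block) and from -0.084 to 0.067 without 1 library. Against wt cells with library sizes alone, they took 0.016 for Max and 0.042 for Mlx at 0 h (0.067 for Mlx with the fibroblast covariate), and 0.25 for Mlx, 0.36 for Myc, 0.30 for Mycl and 1.01 for Hmga2 at 24 h; Hmga2 took 0.032 with protein-coding genes, 0.10 with 10 counts and from -0.82 to 0.27 without 1 library. The called value that turned was that of Mlx at 24 h.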
